A study of Mus musculus with 6 samples.

Results

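The genes described here are 10 markers of monocytes and macrophages: F13a1, Ms4a6c, Ccr2, Lyz2, Mpeg1, Fcgr1, Cd68, Adgre1, C1qa and C1qb. They were taken by name as rows of the deposited expression table, where all 10 were found, each once, among 55487 genes. RNA was sequenced from LSKs, the Lin- Sca-1+ c-Kit+ bone marrow fraction that holds hematopoietic stem cells and multipotent progenitors. There were 3 libraries from Tespa1+/+ littermates and 3 from Tespa1-/- mice, a knockout of the signalling adaptor Tespa1. Per the study's methods, both groups were male mice of 8 to 10 weeks on the C57BL/6 background, both received 5 Gy of total body irradiation, and LSKs were taken on day 13. No unirradiated LSKs are among these samples, so all values belong to marrow recovering from irradiation. The sources used here do not say whether the libraries of a group came from separate mice or pools, so the p-values measure the spread between these libraries, which may be technical.

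Monocytes arise from stem cells through myeloid and then monocyte-restricted progenitors, and some macrophages arise from monocytes in turn. Some genes of this lineage are switched on early in bone marrow progenitors, among them Lyz2, Mpeg1, F13a1 and Ms4a6c. Others, such as Adgre1, which encodes F4/80, and the C1q chains, are known mainly from mature macrophages. The sort removes cells that carry CD11b or Gr-1, antigens of mature myeloid cells.

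The libraries held 12856630 to 30576981 counts in genes. Tespa1 itself, the targeted gene, was at 32.7 to 36.0 counts per 1000000 (CPM, scaled by the trimmed mean of M-values, TMM) in the Tespa1+/+ libraries and at 14.2 to 15.3 CPM in the Tespa1-/- libraries. Fold changes followed gene length in these data (Spearman rho of -0.62 over 10029 genes whose average log2 CPM exceeded 3), and values corrected for length are given beside the named genes whose call that correction ended. Kit, an antigen of the sort, was at 333 ± 9.79 CPM in Tespa1+/+ LSKs and at 169.6 ± 6.12 CPM in Tespa1-/- LSKs (SD, n = 3 per group), a log2 fold change of -0.97 that was -0.48 after the exon length correction and -0.54 with the length implied by count and FPKM, both under the 1.5-fold threshold. Ly6a, which encodes Sca-1, the other antigen the sort selects for, was not called (-0.32, SE 0.16, adjusted p = 0.11).

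In Tespa1+/+ LSKs, the early genes of the lineage were plainly present, Adgre1 and Fcgr1 were low, and the C1q chains were close to the detection limit. Per kilobase of annotated exon, Lyz2 was highest at 76.1 ± 1.69 CPM per kilobase (SD, n = 3) and overlapped with Ms4a6c at 75.8 ± 2.15. F13a1 followed at 63.8 ± 0.108 and Mpeg1 at 48.1 ± 0.681, both apart from their neighbours in the order. Cd68 stood at 19.1 ± 0.847 CPM per kilobase and Ccr2 at 14.0 ± 0.763, again with no overlap. Adgre1 at 1.11 ± 0.198 CPM per kilobase and Fcgr1 at 0.569 ± 0.314 were far below these. Fcgr1 overlapped with C1qb at 0.265 ± 0.0400, and C1qb with C1qa at 0.108 ± 0.187. In Tespa1-/- LSKs the first 6 genes kept this order, now with Lyz2 at 74.2 ± 2.84 CPM per kilobase clear of Ms4a6c at 66.6 ± 3.76, and Fcgr1 overlapped with Adgre1.

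The markers did not move as a group between the genotypes. Of the 10, 8 passed the filter on low counts and could be tested, and C1qa and C1qb did not pass it. With edgeR's quasi-likelihood test, Mpeg1 was called lower in Tespa1-/- LSKs (adjusted p under 0.05 and a fold over 1.5) and no marker was called higher, against 19.2% of 15332 tested genes called lower and 14.0% called higher. At an unadjusted p under 0.05 with the same fold, and with DESeq2, the number called higher was also 0. By adjusted p alone, F13a1, Ms4a6c and Mpeg1 were lower and Cd68 was higher, against 31.8% of tested genes lower and 31.5% higher. The 3 libraries of one genotype did not overlap with those of the other for 5 of the 8 tested markers, against 69.1% of all tested genes. The median log2 fold change of the 8 markers was -0.02, and that of all tested genes was -0.0003. In bulk RNA of this kind, fewer cells that express a gene and less of its RNA per cell cannot be told apart.

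**Figure D1:**
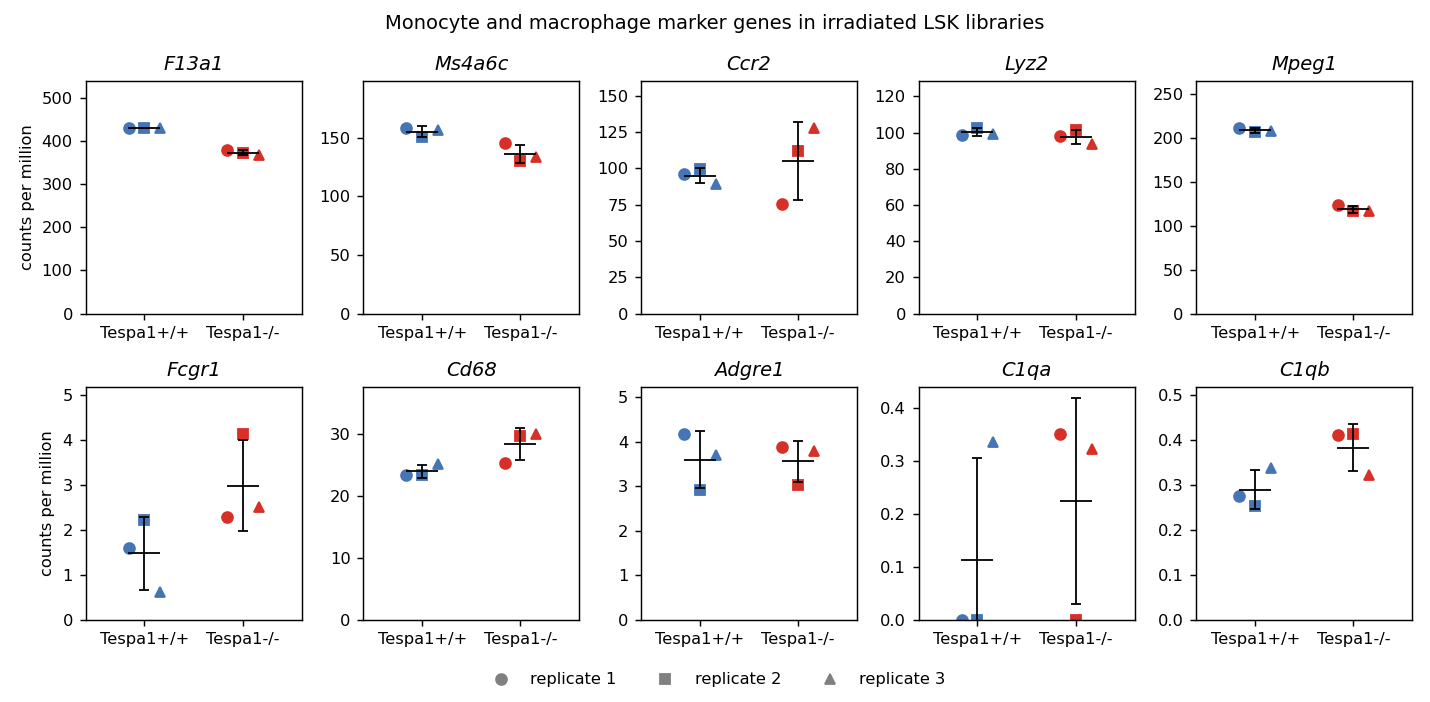
Level of each of the 10 marker genes in every library, in TMM-scaled CPM on axes that start at 0, with the mean and SD of the 3 libraries per genotype in black. The Mpeg1 libraries form separate groups at 206 to 212 and 117 to 124 CPM, the Ccr2 libraries of Tespa1-/- LSKs spread from 75.7 to 128 CPM, and C1qa and C1qb stay under 0.5 CPM.

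Among the genes of phagosomes and lysosomes (Mpeg1, Lyz2 and Cd68), Mpeg1 was the one called. It encodes perforin-2, a pore-forming protein of phagosomes that attacks engulfed bacteria. It lies at chr19:12460779-12465283 (GRCm38, plus strand), with 2 exons and an exon length of 4334 bases. Its level was 212, 206 and 208 CPM in the Tespa1+/+ libraries and 124, 117 and 117 CPM in the Tespa1-/- libraries, so every Tespa1-/- library was below every Tespa1+/+ library. The means were 209 ± 2.95 and 119 ± 3.94 CPM (SD, n = 3), a 1.75-fold decrease with a log2 fold change of -0.81 (SE 0.04, adjusted p = 2.93e-06). Mpeg1 shared none of its 50-base words with another annotated transcript. It was called lower under each of the 17 other scalings, filters, tests and left-out libraries tried, with log2 fold changes from -0.91 to -0.65.

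Lyz2 encodes lysozyme M, which cuts bacterial cell walls and is made by monocytes, macrophages and neutrophils alike. It lies at chr10:117277331-117282321 (minus strand), next to its near copy Lyz1 at chr10:117287797-117292868, which is used mainly in the gut. The coding sequences have 444 bases each, differ at 22 of them and are 95.0% identical, and 15.4% of the 50-base words of Lyz2 also occur in Lyz1. The first 150 coding bases, from GENCODE M21 transcripts, are shown because they hold 14 of the differences, marked in capitals, that let a read be assigned to one gene or the other.
Lyz2: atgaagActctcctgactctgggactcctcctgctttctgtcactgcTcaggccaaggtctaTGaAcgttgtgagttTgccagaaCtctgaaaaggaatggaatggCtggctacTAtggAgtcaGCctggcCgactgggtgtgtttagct
Lyz1: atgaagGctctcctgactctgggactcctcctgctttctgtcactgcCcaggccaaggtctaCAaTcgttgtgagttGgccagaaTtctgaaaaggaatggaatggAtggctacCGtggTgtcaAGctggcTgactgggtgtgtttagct
Lyz1 had 0 to 3 counts in each library, so few reads were placed on it. Lyz2 was at 98.8, 103 and 99.1 CPM in Tespa1+/+ LSKs and at 97.9, 101 and 93.8 CPM in Tespa1-/- LSKs, and the groups overlapped. Its log2 fold change was -0.04 (SE 0.04, adjusted p = 0.47). Lyz2 is short, at 1316 bases, and the correction for exon length gave -0.26 (SE 0.04, adjusted p = 0.0017), while scaling to total counts gave -0.14 (adjusted p = 0.023). All 3 values lie under the 1.5-fold threshold.

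Cd68 encodes macrosialin, a heavily glycosylated lysosomal membrane protein of the LAMP family. It lies at chr11:69664213-69666153 (minus strand). The libraries had 23.4, 23.4 and 25.2 CPM in Tespa1+/+ LSKs and 25.4, 29.8 and 30.1 CPM in Tespa1-/- LSKs, where the lowest Tespa1-/- library stood just above the highest Tespa1+/+ library. The log2 fold change of 0.24 (SE 0.08, adjusted p = 0.037) was 1.18-fold and not called. Its adjusted p was above 0.05 in 12 of the 17 alternatives, and correction for its exon length of 1257 bases left a log2 fold change of 0.01 (adjusted p = 0.95).

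Of the secreted proteins (F13a1, C1qa and C1qb), F13a1 encodes the A subunit of coagulation factor XIII, a transglutaminase that cross-links fibrin, and is abundant in monocytes and megakaryocytes. It lies at chr13:36867178-37050244 (minus strand) with 18 exons and was the most counted marker, with 4547 to 13564 counts per library. The Tespa1+/+ libraries had 429.6, 429.5 and 431 CPM and the Tespa1-/- libraries 379, 372 and 367 CPM, with no overlap. This was a log2 fold change of -0.21 (SE 0.02, adjusted p = 0.00026), past the adjusted p but 1.15-fold and therefore not called. F13a1 has an exon length of 6739 bases, above the median of 3663.5 bases over the tested genes that have a length. Corrected for exon length, its log2 fold change turned to 0.15 (SE 0.02, adjusted p = 0.0014), and with the length implied by count and FPKM it was -0.03 (adjusted p = 0.27). The sign of F13a1 thus turned under the exon length correction only, which also moved the median of all tested genes to 0.11. Mpeg1 stayed at -0.65 after the same correction.

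C1qa and C1qb encode chains of C1q, the complement component that binds antibody on targets and is made by tissue macrophages. They lie at chr4:136895917-136898803 and chr4:136880129-136886187, both on the minus strand, with C1qc between them. C1qa had 0, 0 and 5 counts in Tespa1+/+ libraries and 6, 0 and 4 counts in Tespa1-/- libraries. C1qb had 5, 8 and 5 counts against 7, 6 and 4 counts. A count of 0 allows up to 3 counts, or 0.0949 to 0.242 CPM in these libraries, counting error only. Neither gene was tested, and no difference was detectable at this depth. C1qc, the remaining chain, was as low, with 0 to 8 counts per library.

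Of the surface proteins (Ms4a6c, Ccr2, Fcgr1 and Adgre1), Ms4a6c encodes a membrane protein of the MS4A family with 4 spans, used as a marker of monocytes and their progenitors. It lies at chr19:11469366-11482192 (plus strand). Its level was 159, 150.5 and 157 CPM in Tespa1+/+ LSKs and 145, 131 and 134 CPM in Tespa1-/- LSKs, again with no overlap between the groups. The log2 fold change was -0.19 (SE 0.05, adjusted p = 0.012), a 1.14-fold difference and not called. It kept its sign and stayed past the adjusted p under all 17 alternatives, from -0.30 to -0.15. Of its exon bases, 53.1% are also exons of BE692007 on the opposite strand. The library kit keeps strand, but whether counting used it is not given in the sources used here. BE692007 itself had 14 to 35 counts per library, against 1659 to 4751 for Ms4a6c.

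The chemokine receptor Ccr2 binds Ccl2 and lets monocytes leave the bone marrow. It lies at chr9:124101950-124113557 (plus strand). Tespa1+/+ libraries had 95.9, 99.3 and 89.2 CPM and Tespa1-/- libraries 75.7, 112 and 128 CPM, so the Tespa1-/- libraries lay on both sides of the Tespa1+/+ libraries. The log2 fold change was 0.15 (SE 0.17, adjusted p = 0.49). Tespa1-/- replicate 1 stood below the other two. The highest of the 3 libraries was 1.69-fold above the lowest, a ratio that 4.06% of 10821 genes with a mean count of at least 100 reached in this genotype, against a median ratio of 1.10. Without Tespa1-/- replicate 1 the log2 fold change was 0.34 (adjusted p = 0.0090), without Tespa1-/- replicate 3 it was -0.01 (adjusted p = 0.96), and with correction for its exon length of 6760 bases it was 0.51 (SE 0.17, adjusted p = 0.039). With the length implied by count and FPKM it was 0.64 (adjusted p = 0.016), past both thresholds. No direction can be given for Ccr2 from these values. Itgam, which encodes CD11b and was one of the antigens the sort removed, was also lowest in Tespa1-/- replicate 1, at 10.3 CPM against 24.2 and 27.5 CPM in the other Tespa1-/- libraries and 29.6 to 31.7 CPM in Tespa1+/+ LSKs. Its part in the Ccr2 spread was not tested.

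Fcgr1 encodes CD64, the high-affinity Fc receptor for IgG of monocytes and macrophages, at chr3:96282909-96293969 (minus strand). It was thinly covered, with 29, 70 and 9 counts in Tespa1+/+ libraries and 39, 60 and 31 counts in Tespa1-/- libraries. These were 1.60, 2.22 and 0.607 CPM against 2.29, 4.13 and 2.50 CPM. The groups just failed to overlap, and the Tespa1+/+ libraries spread as widely as the groups differed. The log2 fold change was 0.91 (SE 0.42, adjusted p = 0.094) and did not pass. It passed at 1.39 (adjusted p = 0.039) without Tespa1+/+ replicate 2, and at 1.01 (adjusted p = 0.033) with a replicate block.

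Adgre1, the gene of the macrophage antigen F4/80, lies at chr17:57358691-57483527 (plus strand) with 22 exons. It had 4.18, 2.91 and 3.71 CPM in Tespa1+/+ LSKs and 3.87, 3.03 and 3.79 CPM in Tespa1-/- LSKs. The groups overlapped in full, and the log2 fold change of 0.01 (SE 0.18, adjusted p = 0.98) leaves a change of either sign well inside its error.

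**Figure D2:**
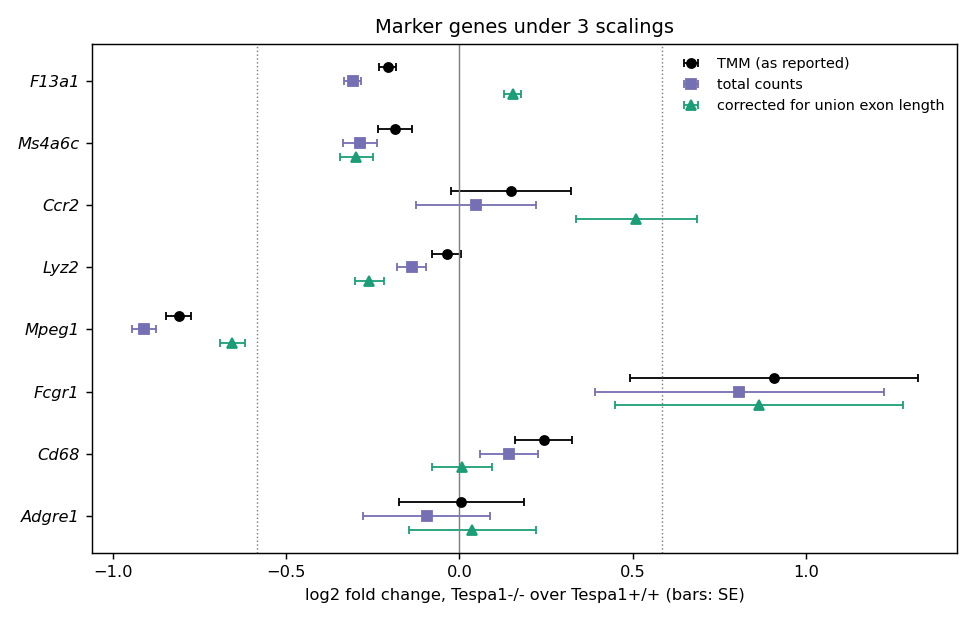
Log2 fold change of the 8 tested marker genes, Tespa1-/- over Tespa1+/+, with its standard error, under TMM scaling, total-count scaling and correction for exon length; dotted lines mark a 1.5-fold change. Mpeg1 stays below the lower line at -0.81, -0.91 and -0.65, whereas F13a1 moves from -0.21 to 0.15 and Ccr2 from 0.15 to 0.51 with the length correction.

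Set against gene length, the markers fell into different places. Across the genes behind the relation, the median log2 fold change fell from 0.64 in the decile of the shortest genes to -0.56 in that of the longest. Mpeg1, Lyz2, Ms4a6c and Cd68 lay below the median of genes of their length, F13a1 lay near it, and Ccr2 lay above it. Among genes of 3587 to 4343 bases, which include Mpeg1, the central 80% of log2 fold changes ran from -0.43 to 0.56, and Mpeg1 at -0.81 was outside that range. Among genes of 1246 to 2157 bases, which include Ms4a6c, Lyz2 and Cd68, it ran from -0.17 to 0.80, and Ms4a6c at -0.19 was just outside it. Among genes of 6165 to 7554 bases, which include F13a1 and Ccr2, it ran from -0.88 to 0.30. The correction moves the median of all tested genes to 0.11 and total-count scaling moves it to -0.10, so small shifts of a marker under either are partly shifts of every gene.

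**Figure D3:**
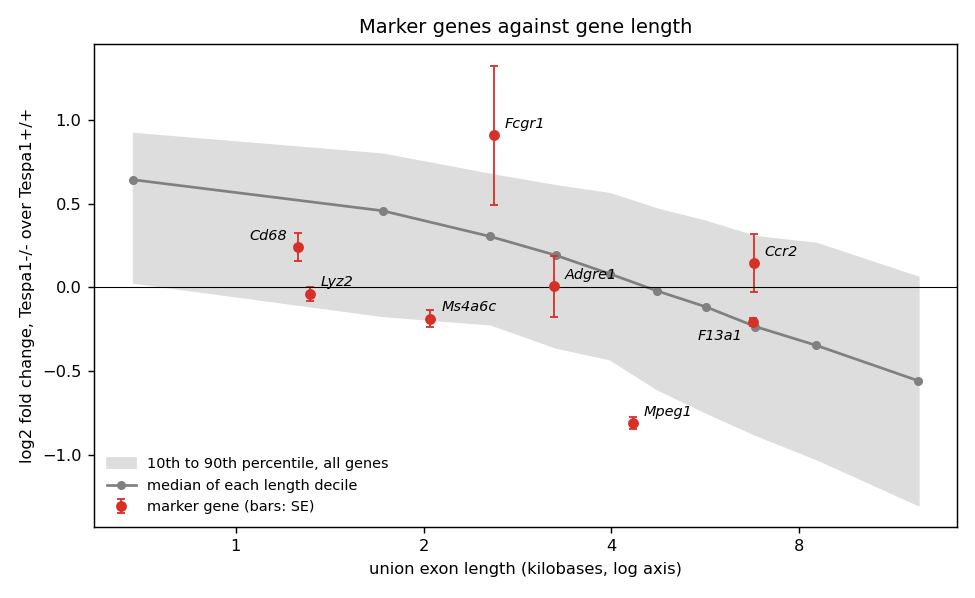
Log2 fold change, Tespa1-/- over Tespa1+/+, against exon length on a log axis, with the median (line) and the 10th to 90th percentile (band) of each length decile and the 8 tested marker genes with their standard errors (points). Mpeg1 at -0.81 lies below the band, Ms4a6c at -0.19 lies at its lower edge, and F13a1 at -0.21 lies on the median of genes of its length. Fcgr1 at 0.91 lies above the band with a wide error. The deciles hold only genes whose average log2 CPM exceeded 3, and Fcgr1 and Adgre1 were below that level.

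The sequence upstream of the start site was compared between markers, because PU.1, the ETS factor encoded by Spi1, drives many myeloid genes. RefSeq promoters of GRCm38.p6, with 250 bases before and 50 bases after the start, were at hand for 8 of the 10 markers. They were 9 records, because F13a1 had an additional start. A marker counted if any of its records matched, while the shares of all promoters are over single records. The 6-base ETS motif GGAAGT, on either strand, was in those of 6 markers (F13a1, Ms4a6c, Lyz2, Fcgr1, Cd68 and C1qb) and in 23.8% of all 32851 promoters. Shorter ETS matches were not counted. The longer GAGGAAGT, which contains GGAAGT, was in that of F13a1 only and in 3.20% of all promoters. The C/EBP motif TTGCNNAA was in that of Cd68 only and in 10.8% of all promoters. Mpeg1 and Ccr2 held none of these 3 motifs. The 250 bases before the start are shown for Mpeg1, the marker called lower, and for Fcgr1 and Ms4a6c, which were not called, with GGAAGT or its reverse complement in capitals.
Mpeg1, chr19:12460520-12460769, plus strand: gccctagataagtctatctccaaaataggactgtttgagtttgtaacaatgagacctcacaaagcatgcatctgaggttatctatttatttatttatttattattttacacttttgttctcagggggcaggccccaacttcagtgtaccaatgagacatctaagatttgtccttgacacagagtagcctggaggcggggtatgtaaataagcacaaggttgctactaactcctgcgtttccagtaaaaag
Fcgr1, chr3:96293970-96294219, minus strand: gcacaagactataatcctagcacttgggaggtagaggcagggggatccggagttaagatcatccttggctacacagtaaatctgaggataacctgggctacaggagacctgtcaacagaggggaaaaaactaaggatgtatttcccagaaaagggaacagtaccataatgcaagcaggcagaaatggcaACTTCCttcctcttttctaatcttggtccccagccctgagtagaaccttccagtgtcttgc
Ms4a6c, chr19:11469118-11469367, plus strand: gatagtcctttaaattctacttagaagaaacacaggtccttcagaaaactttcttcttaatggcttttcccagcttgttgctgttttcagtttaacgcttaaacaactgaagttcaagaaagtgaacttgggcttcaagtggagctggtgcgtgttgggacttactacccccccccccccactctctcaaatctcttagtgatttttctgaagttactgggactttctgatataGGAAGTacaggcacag
These letters are matches in a window and not measured binding sites.

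Spi1 was among the transcription factors of the lineage, of which 3 of the 9 tested were called higher in Tespa1-/- LSKs and 4 lower, with Spic not tested. Of all tested genes, 14.0% were called higher and 19.2% lower. Spi1 rose from 168 ± 7.59 to 268 ± 5.86 CPM (log2 fold change 0.67, SE 0.04, adjusted p = 1.03e-05), a change of 0.57 with total counts, just under the fold threshold. Zeb2, a zinc-finger repressor used in several myeloid fates, fell from 209 ± 6.26 to 93.7 ± 11.1 CPM (log2 fold change -1.16, SE 0.08, adjusted p = 1.99e-05). Its exons span 19942 bases, and corrected for length the log2 fold change was -0.30 (adjusted p = 0.015), under the fold threshold. Klf4, a factor of monocyte differentiation, fell from 121 ± 6.86 to 54.8 ± 3.69 CPM (-1.14, SE 0.06, adjusted p = 7.88e-06) and was at -1.13 after the length correction. Irf8, which directs progenitors to the monocyte and dendritic fates, had 264, 268 and 169 CPM in Tespa1+/+ libraries and 98.5, 96.4 and 192 CPM in Tespa1-/- libraries. One library of each genotype thus lay across the gap, and the call (-0.86, SE 0.30, adjusted p = 0.038) was lost without replicate 1 or replicate 2 of either genotype (adjusted p from 0.10 to 0.11), with DESeq2 (adjusted p = 0.062), with a replicate block (-0.92, adjusted p = 0.081) and with the length correction (-0.48, adjusted p = 0.21). Tfec, listed here as a macrophage factor though plainly present in these LSKs, rose from 48.4 ± 11.1 to 79.9 ± 2.34 CPM (0.72, SE 0.16, adjusted p = 0.0053). Its log2 fold change was 0.55, under the fold threshold, without Tespa1+/+ replicate 3.

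Other genes listed for classical monocytes, some of which other cells use too, were called in both directions. Of 16 genes, 15 were tested, 6 were called higher and 3 lower, against 14.0% and 19.2% of all tested genes. The median log2 fold change of the list was 0.44, against -0.0003 for all tested genes. After the exon length correction it was 0.22, against 0.11 for all tested genes. That fit called 5 of the 15 higher and 3 lower, and 1791 and 2073 of all 15332. With total counts the median was 0.34, against -0.10. That fit called 4 of the 15 higher and 4 lower, and 1491 and 3516 of all 15332. Chil3, the chitinase-like protein Ym1 of monocytes, macrophages and immature neutrophils, rose from 0.318 ± 0.154 to 18.3 ± 1.83 CPM (5.86, SE 0.22, adjusted p = 1.84e-06). Ifitm6 rose from 2.02 ± 0.316 to 9.13 ± 0.433 CPM (2.17, SE 0.13, adjusted p = 1.04e-05). Fn1, which encodes fibronectin, fell from 6.79 ± 0.504 to 1.66 ± 0.538 CPM (-2.02, SE 0.20, adjusted p = 0.00012). Cx3cr1, the fractalkine receptor of patrolling monocytes and macrophages, fell from 10.3 ± 3.53 to 3.80 ± 0.295 CPM (-1.44, SE 0.25, adjusted p = 0.0019). The other called genes were Lgals3, Ly6c2, Cd14 and Clec12a, all higher (Cd14 and Clec12a under the fold threshold with total counts, at log2 fold changes of 0.58 and 0.54, and Cd14 also after the exon length correction, at 0.52), and Csf1r, the receptor for the macrophage growth factor M-CSF, which was lower at -0.65 (SE 0.05) and at -0.37 after the length correction.

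Resident macrophage genes were mostly too low to test. Of 18 genes, 10 did not pass the low-count filter, and Marco and Vsig4 had no counts in any library. The summed level of the list was 66.3 to 85.1 CPM in Tespa1+/+ libraries and 52.8 to 64.1 CPM in Tespa1-/- libraries. Its largest part was Apoe, at 33.1, 53.4 and 52.0 CPM in Tespa1+/+ libraries and 42.5, 30.1 and 36.0 CPM in Tespa1-/- libraries. The Apoe groups overlapped, and it was not called (adjusted p = 0.17). Among the 8 tested, Cd163, Mrc1 and Axl were called lower and Trem2 higher, against 19.2% and 14.0% of all tested genes. The Trem2 call was lost with DESeq2 (adjusted p = 0.17), with total counts (adjusted p = 0.058) and without any 1 of 5 libraries (adjusted p from 0.061 to 0.096). Axl, a receptor for apoptotic cells, fell from 10.3 ± 0.957 to 5.68 ± 0.298 CPM (-0.86, SE 0.11, adjusted p = 0.00034).

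The relatives of a marker did not all share its direction. Of the 23 relatives and partners, 16 were tested, 4 were called higher and 4 lower, against 14.0% and 19.2% of all tested genes. Beside Ms4a6c, Ms4a6b was lower at 46.5 ± 2.83 against 36.8 ± 1.48 CPM (-0.34, SE 0.06, adjusted p = 0.0028, under the fold threshold), which was -0.17 (adjusted p = 0.057) after the exon length correction and -0.10 (adjusted p = 0.22) with the length implied by FPKM, while Ms4a6d rose from 1.91 ± 0.640 to 6.52 ± 1.41 CPM (1.75, SE 0.26, adjusted p = 0.00076). Ms4a4b, in the same gene cluster, fell from 5.77 ± 0.230 to 3.42 ± 0.588 CPM (-0.75, SE 0.14, adjusted p = 0.0029). It is 8780 bases long and was at -0.27 (adjusted p = 0.14) after the length correction.

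Beside Fcgr1, the other IgG receptors were called higher. Fcgr3 rose from 74.4 ± 2.75 to 123 ± 4.10 CPM (0.72, SE 0.04, adjusted p = 1.09e-05, and 0.57 after the exon length correction, under the fold threshold) and Fcgr2b, the inhibitory receptor, from 54.1 ± 2.30 to 88.1 ± 2.83 CPM (0.70, SE 0.05, adjusted p = 1.87e-05). Fcgr3 shares 9.58% of its 50-base words with Fcgr2b, and Fcgr2b shares 6.95% of its own with Fcgr3 and other genes. Fcgr4 rose from 1.38 ± 0.0496 to 2.92 ± 0.759 CPM (1.09, SE 0.22, adjusted p = 0.0036), and Fcer1g, the signalling chain that Fcgr1 also uses, was higher at 36.4 ± 1.05 against 46.6 ± 3.42 CPM (0.35, SE 0.07, adjusted p = 0.0025, under the fold threshold and at 0.01 after the length correction). Whether Fcgr1 moved differently from these was not tested.

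Ccl2, the ligand of Ccr2, fell from 8.03 ± 0.105 to 4.37 ± 0.177 CPM (-0.87, SE 0.09, adjusted p = 0.00015), while its further ligands Ccl7 and Ccl12 were not tested for lack of counts. Tgm2, a tissue transglutaminase related to F13a1, fell from 16.2 ± 1.86 to 5.62 ± 0.484 CPM (-1.53, SE 0.12, adjusted p = 3.44e-05), also after the length correction (-1.35). F13b, which encodes the carrier subunit of plasma factor XIII, had no counts.

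**Figure D4:**
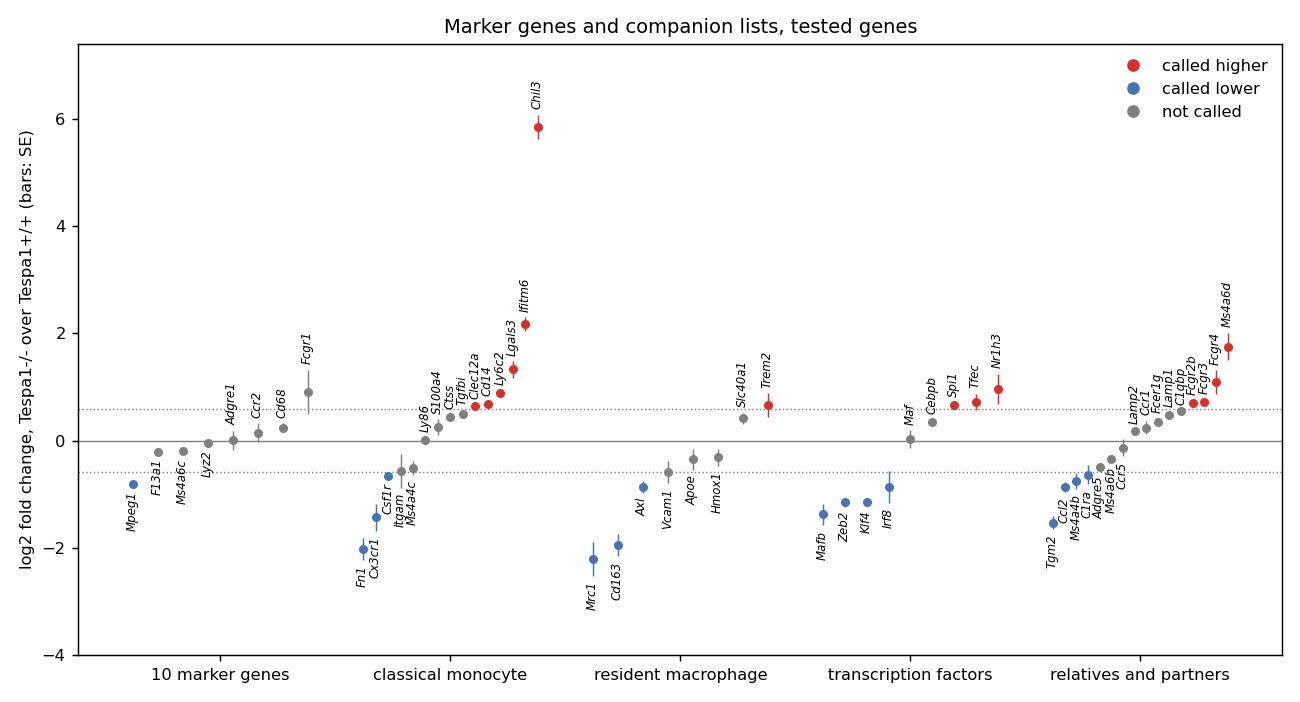
Log2 fold change, Tespa1-/- over Tespa1+/+, with its standard error, of each tested gene among the 10 marker genes and 4 companion lists; dotted lines mark a 1.5-fold change. Called genes lie on both sides of 0 in all 4 companion lists, and Mpeg1 is the marker gene past the dotted lines with an adjusted p under 0.05.

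Genes listed for granules, late neutrophils and dendritic cells were measured in the same libraries, where 14.0% of all tested genes were called higher and 19.2% lower. These lists are not exclusive to cells outside the monocyte lineage. By adjusted p alone, 31.5% of all tested genes were higher. Of 12 genes of secondary granules and late neutrophils, 11 were tested and 10 were called higher, with a summed level of 27.0 to 30.0 CPM in Tespa1+/+ libraries and 495 to 523 CPM in Tespa1-/- libraries, although Ly6g, an antigen of the Gr-1 antibody, had no counts in Tespa1+/+ libraries and stayed under 0.6 CPM in the others. All 5 primary granule genes passed the adjusted p as higher, 4 of them by over 1.5-fold, and their summed level went from 10907 to 11637 CPM in Tespa1+/+ libraries to 17958 to 18774 CPM in Tespa1-/- libraries. Lyz2 and Chil3 are used by neutrophils and their precursors too. Of 12 dendritic cell genes, 10 were tested and 5 were called lower, with Cd209a at 0 in every library. Their summed level was 289 to 313 CPM in Tespa1+/+ libraries and 269 to 297 CPM in Tespa1-/- libraries. Most of it came from Cd74, H2-Ab1, H2-Aa and H2-Eb1, which were not called (112, 76.5, 49.1 and 36.7 CPM in Tespa1+/+ LSKs, 101, 84.2, 48.1 and 38.1 CPM in Tespa1-/- LSKs). The called genes were Itgax, Zbtb46, Xcr1, Clec9a and Ccr9, at log2 fold changes from -1.53 (Zbtb46) to -0.83 (Clec9a). Mpeg1 is also used by dendritic cells and B cells. Which cells the RNA of these lists came from, the monocyte lineage included, was not tested. Nor was the part of such cells in the marker values.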

How the data were processed

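The deposited table holds, for 6 LSK libraries, gene counts and FPKM values (fragments per kilobase, scaled to depth). The submitters' processing notes name CASAVA 1.8, HISAT2, StringTie, edgeR and GRCm38; other versions and the strand setting of the counting are not given in the sources used here. The counts were used as deposited. The deposited FPKM values imply gene lengths that can exceed the merged exons of GENCODE M21 (14410 against 6760 bases for Ccr2), so levels between genes were compared as CPM per kilobase of merged exons. The 10 genes and all gene lists were chosen with earlier results of these data known. The low-count filter (filterByExpr) left 15332 genes, which were fitted with edgeR 4.0.16 (R 4.3.3; TMM, quasi-likelihood F-test, no covariates, Benjamini-Hochberg over all genes tested). Calls needed an adjusted p below 0.05 together with a fold above 1.5. SEs were derived from each F statistic. Alternatives were other scalings and filters, DESeq2 1.42.0, limma-trend 3.58.1 on log2(FPKM + 1) and log2(FPKM + 0.1), a loess offset on gene length, a replicate block, and leaving out each library. Steps were tested on simulated data. Same-numbered libraries of the genotypes were not treated as pairs, since their deviations correlated only by 0.01 to 0.06. Those of differently numbered libraries correlated by -0.05 to 0.004, below all same-numbered values. From each companion list, family members of a marker and up to 4 called genes with the largest change and a mean count of at least 50 are named, with genes called or at 0 named after their values were seen. Of the table's 55487 genes, 55227 were found in GENCODE M21.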

Additional observations from a re-analysis of the deposited data

How the results depend on the processing

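Mpeg1 and Ms4a6c kept their direction and their side of the adjusted p under all 17 alternatives. The number of markers called lower was 1 throughout, except for 3 with no fold threshold, and the number called higher was 0 or 1. It was 1 with a replicate block and without Tespa1+/+ replicate 2 (Fcgr1), with the length implied by FPKM (Ccr2) and with no fold threshold (Cd68), so the range over left-out libraries was 0 to 1. The block left the number called lower at 1, and the deviations of same-numbered libraries correlated only weakly (0.01 to 0.06). The median log2 fold change of the tested markers was -0.12 with total counts, 0.079 with no filter (10 markers), -0.061 with at least 10 counts in every sample (7 markers), -0.21 with limma-trend on log2(FPKM + 1) and log2(FPKM + 0.1) (6 markers), 0.022 with the exon length correction and -0.075 to 0.043 over left-out libraries. F13a1 reversed to 0.15 with the exon length correction. Ccr2 ranged from -0.0098 (without Tespa1-/- replicate 3) to 0.34 (without Tespa1-/- replicate 1) with a library left out, and was 0.51 with the exon length correction and 0.64 with the length implied by FPKM. Adgre1, at 0.01, reversed to -0.10 with total counts, -0.013 with at least 10 counts, -0.0041 with DESeq2, -0.011 with the block and -0.053 with unfiltered limma-trend, and ranged from -0.14 to 0.13 with a library left out. The cause of these changes was not tested. Lyz2 passed the adjusted p in 6 alternatives, all lower, and Cd68 failed it in 12. Depth limits Fcgr1, Adgre1, C1qa and C1qb, each with 92 counts or fewer in any library.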
